A study of Mus musculus with 4 samples.

Results

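The dorsoventral patterning genes of the spinal cord are 10 transcription factor genes that divide the early neural tube into bands of progenitor cells. They were chosen by name, with earlier results of these data known. Every probe whose accession belongs to 1 of them was read in the 4 scanner files. Ordered from the ventral to the dorsal side, they are Nkx2-2, Olig2, Nkx6-1, Nkx6-2, Irx3, Irx5, Pax6, Dbx2, Dbx1 and Msx3. All 10 were found, of 18224 genes named on the array, with 13 probes in all: 7 genes had 1 probe, and Olig2, Pax6 and Msx3 had 2. The set is known as homeobox genes, and 9 of the 10 encode homeodomain proteins; Olig2 encodes a basic helix-loop-helix protein.

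RNA came from the posterior part of E9.5 embryos. There were 2 Jmjd3-/- samples, replicates 1 and 9, set against 2 wild-type samples, replicates 3 and 4. Jmjd3, now named Kdm6b, encodes a demethylase that removes repressive methyl groups from lysine 27 of histone H3. The embryos came from crosses of heterozygous Jmjd3+/- mice, were taken to be E9.5 from mating time and somite count, and each sample was the whole posterior piece, in which neural tube lies beside mesoderm, gut and tail bud. The strain and the deleted part of the gene are not given in the sources used here, nor is it stated whether a sample is 1 embryo or a pool.

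In the neural tube, Sonic hedgehog from the notochord and floor plate acts from the ventral side, and BMP and Wnt signals act from the dorsal side. Hedgehog signalling induces the ventral genes Nkx2-2, Olig2 and Nkx6-1 and represses genes such as Pax6, Irx3, Dbx1 and Dbx2. Pairs of these factors repress each other, which sharpens the borders between bands, and each band later gives rise to its own class of spinal neurons. Retinoic acid from the somites helps to start this programme as cells leave the tail bud. Many such genes carry methylated lysine 27 in tissues where they are silent.

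The upstream sequences of 5 of the genes are given because 4 of them, Dbx1, Nkx6-2, Olig2 and Msx3, shared the widest gaps between the Jmjd3-/- arrays, and because Irx3 was the member with the smallest gap. Each is the 250 bases before the annotated start of the gene, 5′ to 3′ on the strand of the gene, from RefSeq on GRCm38.p6, and the capitals mark CG dinucleotides.
Dbx1 (chr7:49636836-49637085, minus strand): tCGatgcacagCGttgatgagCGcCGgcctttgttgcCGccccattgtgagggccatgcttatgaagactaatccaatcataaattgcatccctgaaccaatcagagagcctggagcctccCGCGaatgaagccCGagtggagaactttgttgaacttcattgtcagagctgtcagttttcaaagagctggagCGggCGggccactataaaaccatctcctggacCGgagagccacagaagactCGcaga
Nkx6-2 (chr7:139582798-139583047, minus strand): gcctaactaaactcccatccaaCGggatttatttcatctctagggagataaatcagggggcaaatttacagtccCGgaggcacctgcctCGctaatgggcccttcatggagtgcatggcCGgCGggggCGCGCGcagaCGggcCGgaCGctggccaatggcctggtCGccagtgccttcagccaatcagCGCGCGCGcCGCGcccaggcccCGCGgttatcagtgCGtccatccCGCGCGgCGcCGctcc
Olig2 (chr16:91225300-91225549, plus strand): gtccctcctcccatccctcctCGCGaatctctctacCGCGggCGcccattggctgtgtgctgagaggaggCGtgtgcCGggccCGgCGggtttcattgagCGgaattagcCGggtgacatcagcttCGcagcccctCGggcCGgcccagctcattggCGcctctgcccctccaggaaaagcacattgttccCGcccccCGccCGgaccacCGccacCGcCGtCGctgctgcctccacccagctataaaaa
Msx3 (chr7:140049089-140049338, minus strand): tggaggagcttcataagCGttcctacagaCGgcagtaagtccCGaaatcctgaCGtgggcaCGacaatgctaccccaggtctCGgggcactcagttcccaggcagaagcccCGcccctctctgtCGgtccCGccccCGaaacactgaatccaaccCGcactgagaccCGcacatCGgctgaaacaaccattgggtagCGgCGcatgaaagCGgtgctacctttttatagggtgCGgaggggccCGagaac
Irx3 (chr8:91801655-91801904, minus strand): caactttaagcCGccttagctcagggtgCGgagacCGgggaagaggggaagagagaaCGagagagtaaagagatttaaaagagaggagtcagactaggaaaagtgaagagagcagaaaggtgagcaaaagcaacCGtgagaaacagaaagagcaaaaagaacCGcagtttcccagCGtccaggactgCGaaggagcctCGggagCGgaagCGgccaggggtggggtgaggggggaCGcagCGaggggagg

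CG dinucleotides are the bases on which DNA methylation acts, and CG-rich promoters are common among genes that carry methylated lysine 27. The table of upstream windows held 9 of the 10 genes, with 10 windows because Pax6 had 2 starts. The CG count was 12 for Dbx1, 26 for Nkx6-2, 22 for Olig2, 18 for Msx3 and 13 for Irx3. Over the 10 windows it ran from 8 in Nkx2-2 to 30 in Nkx6-1, with a median of 15, against a median of 6 over all 32851 windows of the same length. Irx3, with the smallest gap between the Jmjd3-/- arrays, had 1 more CG than Dbx1, with the widest. The motif TATAAA, known as the TATA-box core, stood in 3 of the 10 windows, those of Dbx1, Olig2 and Msx3, against 12.4% of all windows, with both strands read. The homeodomain core TAATTA, the Gli site TGGGTGGTC and the nuclear receptor core AGGTCA, each read on both strands, were in 0 of the 10 windows, against 4.84%, 0.225% and 14% of all windows. These matches describe the letters of the windows only.

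The arrays were 1-colour Agilent oligonucleotide arrays, 1 per RNA sample, on 1 slide. Of 41174 probes, 24632 to 25949 per array exceeded background by the scanner's test for "well above", and with 2 arrays per genotype precision is low. The values are log2 processed intensities minus the 75th percentile of the array, so 0 is a probe at that percentile. A level is not compared between genes, since each probe has its own brightness. The targeted gene Kdm6b had log2 values of 0.35 in replicate 1 and 0.11 in replicate 9 of Jmjd3-/-, against 2.15 in replicate 3 and 2.23 in replicate 4 of wild-type (adjusted p = 0.149, limma). Whether its probe lies in the deleted part is not given, so this checks the labels only if it does. Jmjd3-/- replicate 1 stood apart: it was over 2-fold from Jmjd3-/- replicate 9 at 431 of 13584 tested genes, and the wild-type arrays were over 2-fold apart at 157. Each wild-type array was nearer to Jmjd3-/- replicate 9, with 354 and 333 genes over 2-fold apart, than to replicate 1, with 806 and 706. By the array numbers in the scanner files' names, the wild-type arrays lay between the Jmjd3-/- arrays on the slide. An effect of the ends against the middle therefore cannot be told apart from genotype. One that runs evenly along the slide is balanced over the genotypes. It would set apart the Jmjd3-/- arrays, which lay at opposite ends, and by less the wild-type arrays. Its part in the differences between arrays was not tested.

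The comparison of the genotypes asks whether transcripts of the patterning genes differ between Jmjd3-/- and wild-type posterior embryos. Of the 10 genes, 9 had a lower mean in Jmjd3-/- samples and 1, Irx3, had a slightly higher one. The genes were not low on both Jmjd3-/- arrays to the same degree. In Jmjd3-/- replicate 1 the median difference of the 10 genes from the wild-type mean was −1.18 on the log2 scale, with Dbx1 at 9.59% and Nkx6-2 at 18.3% of the wild-type level. In Jmjd3-/- replicate 9 the median was −0.069, with Dbx1 at 93.4% and Nkx6-2 at 77.4%. The members furthest below the wild-type mean in replicate 9 were Nkx2-2 at −0.77, Irx5 at −0.41 and Nkx6-2 at −0.37.

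In the fit over all genes, 0 of the 10 patterning genes passed an adjusted p under 0.05, and 5 of 13584 genes (0.0368%) passed in either direction (limma, Benjamini-Hochberg over all genes). Of these, 2 (0.0147%) were lower in Jmjd3-/-. At an unadjusted p under 0.05 there were 2 patterning genes, Nkx2-2 and Irx5, against 1505 genes (11.1%). All 10 brightest probes were well above background on all 4 arrays, so no member entered the test through 1 genotype alone. The median log2 difference, Jmjd3-/- minus wild-type, was −0.66 over the 10 genes and −0.012 over all genes tested. A negative difference was found for 53.1% of all genes. Both Jmjd3-/- arrays lay below both wild-type arrays for 6 of the 10, against 23.7% of all genes, and above both for 0 of the 10, against 23%. Some of the 6 were separated only narrowly. Nkx6-1 had 1.078 in Jmjd3-/- replicate 9 and 1.081 in wild-type replicate 4. Dbx1 had 0.839 in Jmjd3-/- replicate 9 and 0.869 in wild-type replicate 3. With scaling by the median, or with quantile normalisation, the count was 5. In bulk samples, fewer cells of a type and less RNA per cell cannot be told apart.

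**Figure D1:**
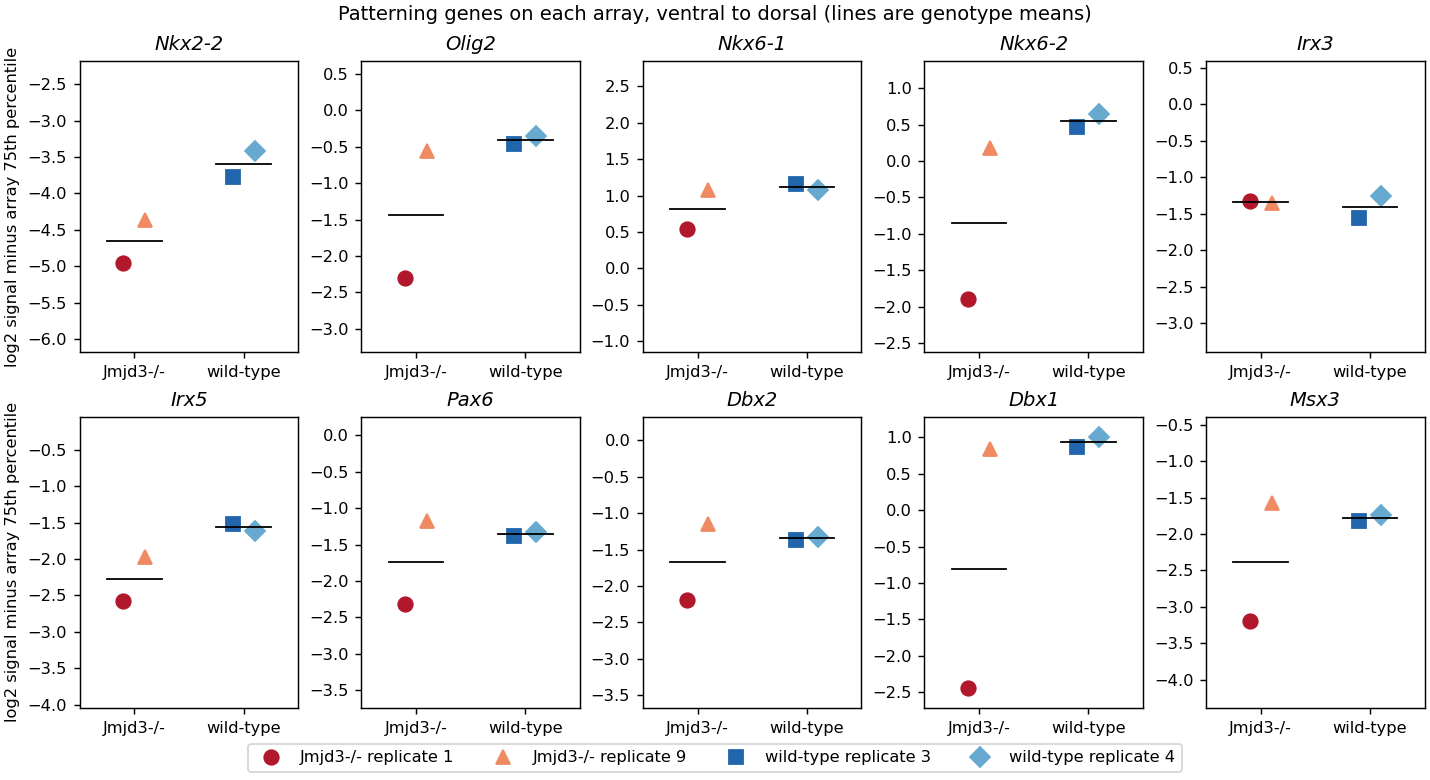
Log2 processed signal minus the 75th percentile of the array (vertical axes, each spanning 4 units) for the 10 patterning genes from ventral to dorsal, with 1 point per array and a line at the mean of each genotype. Jmjd3-/- replicate 1 is below both wild-type arrays for 9 genes, and Jmjd3-/- replicate 9 lies near the wild-type arrays for most.

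Nkx2-2 encodes the homeodomain factor of the most ventral progenitors, which give rise to V3 interneurons. Its log2 signal was −4.95 in replicate 1 and −4.36 in replicate 9 of Jmjd3-/-, against −3.78 in replicate 3 and −3.42 in replicate 4 of wild-type. Both Jmjd3-/- arrays were below both wild-type arrays, with no overlap. The log2 difference was −1.06 (SE 0.26, n = 2 per genotype, adjusted p = 0.358 by limma), with a 95% interval of −1.80 to −0.32 before adjustment. The probe was dim, with processed intensities of 19.5 and 28.1 in Jmjd3-/- and 43.7 and 58.7 in wild-type. With another background correction, normexp, which adds a constant to the signal, the difference was −0.36.

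Nkx2-2 is also expressed in endocrine cells of the gut and pancreas, as are Nkx6-1 and Pax6. Genes of a gut and pancreas list, not all of them specific to those cells, were therefore read in the same samples. Gcg, the glucagon gene, fell by at least 12.2-fold (adjusted p = 0.0228, limma) and was not well above background on either Jmjd3-/- array. It thus entered the test through wild-type alone, and its Jmjd3-/- processed intensities were 3.82 in replicate 1 and 3.59 in replicate 9. With quantile normalisation, or with no filter on dim probes, 0 of all genes passed, Gcg included. With a filter on all 4 arrays Gcg was not tested. Insm1, a gene of endocrine progenitors, gave a signal at least 3.14-fold lower (adjusted p = 0.335), and Neurog3, which specifies them, differed by −0.48 (SE 0.090, adjusted p = 0.329). Onecut1, a liver and pancreas factor, differed by −0.97 (SE 0.28, adjusted p = 0.390). Insm1, dim on both Jmjd3-/- arrays, also entered the test through wild-type alone. Of the 9 tested genes of the gut and pancreas list, 7 were lower, against 53.1% of all genes, and 2 were higher. Of the 9, 1, Gcg, passed the test. Their summed signal, in multiples of the 75th percentile, was 3.14 in replicate 1 and 2.58 in replicate 9 of Jmjd3-/-, against 3.33 in replicate 3 and 3.55 in replicate 4 of wild-type. Isl1, the brightest of them and picked with its values known, made up 43.5% of the sum and is also on the list of postmitotic neuron classes. Without Isl1 the sum was 1.77 in replicate 1 and 1.38 in replicate 9 of Jmjd3-/-. In wild-type it was then 1.88 in replicate 3 and 2.10 in replicate 4. Pdx1 and Ptf1a of the gut and pancreas list were not well above background on any array. The part of these cells in the Nkx2-2 signal was not tested.

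Olig2 marks the progenitors of motor neurons. Its log2 signal was −2.30 in replicate 1 and −0.56 in replicate 9 of Jmjd3-/-, against −0.46 in replicate 3 and −0.35 in replicate 4 of wild-type. Replicate 1 was far below the other 3 arrays, while replicate 9 was lower than wild-type replicate 3 by about as much as the wild-type arrays were apart. The difference was −1.03 (SE 0.63, adjusted p = 0.610, 95% interval −2.82 to 0.77). The second probe of Olig2 was not well above background on any array.

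Nkx6-1 spans the ventral progenitors, including those of motor neurons. It had 0.54 in replicate 1 and 1.08 in replicate 9 of Jmjd3-/-, against 1.15 in replicate 3 and 1.08 in replicate 4 of wild-type, a difference of −0.31 (SE 0.21, adjusted p = 0.635). Its gap between the Jmjd3-/- arrays, −0.54, was the smallest of the 4 ventral genes. Replicate 9 and wild-type replicate 4 had almost the same value.

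Nkx6-2, a close relative of Nkx6-1, is expressed in mouse in a narrower band dorsal to the motor neuron progenitors. Its signal was −1.90 in replicate 1 and 0.18 in replicate 9 of Jmjd3-/-, against 0.46 in replicate 3 and 0.64 in replicate 4 of wild-type. Both Jmjd3-/- arrays were below both wild-type arrays, and replicate 1 was lower than replicate 9 by far more than replicate 9 was from wild-type. The difference was −1.41 (SE 0.76, adjusted p = 0.568, 95% interval −3.57 to 0.75). The processed intensities were 162 and 656 in Jmjd3-/-, against 825 and 979 in wild-type.

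The 2 Iroquois genes, which encode homeodomain factors of progenitors dorsal to the motor neuron band, lie in 1 cluster on chromosome 8 and gave different values. Irx3 had −1.32 in replicate 1 and −1.36 in replicate 9 of Jmjd3-/-, against −1.55 in replicate 3 and −1.25 in replicate 4 of wild-type. Both Jmjd3-/- values lay between the wild-type values, and the difference was 0.065 (SE 0.13, adjusted p = 0.881, 95% interval −0.31 to 0.44). Irx5 had −2.58 in replicate 1 and −1.97 in replicate 9 of Jmjd3-/-, against −1.52 in replicate 3 and −1.61 in replicate 4 of wild-type. Both Jmjd3-/- values of Irx5 were below both wild-type values, with a difference of −0.71 (SE 0.23, adjusted p = 0.427, 95% interval −1.38 to −0.051). With normexp the difference of Irx5 was −0.41.

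Iroquois genes are also active in limb bud and heart mesoderm, and markers of those tissues were read too. Of 12 such genes 10 were lower, against 53.1% of all genes, and 2 higher. Of the 12, 0 passed the test, and the median difference was −0.47. Among them Prrx1, a limb mesenchyme gene, differed by −0.74 (SE 0.10, adjusted p = 0.233) and Tbx5, a forelimb and heart gene, by −1.05 (SE 0.16, adjusted p = 0.279). The heart genes Nkx2-5 and Tnnt2 differed by −1.86 (SE 0.29) and −1.41 (SE 0.33), with adjusted p of 0.299 and 0.347, and Nkx2-5 was not well above background in Jmjd3-/- replicate 1. The summed signal of that list was 26.3 in replicate 1 and 28.2 in replicate 9 of Jmjd3-/-, against 31.5 in replicate 3 and 27.7 in replicate 4 of wild-type, so the genotypes overlapped in the sum. The hindlimb gene Pitx1, its brightest member and picked with its values known, made up 67.2% of the sum. Without Pitx1 the sum was 5.57 in replicate 1 and 7.64 in replicate 9 of Jmjd3-/-, against 13.7 in replicate 3 and 10.4 in replicate 4 of wild-type, with no overlap. The part of these tissues in the Irx5 signal was not tested.

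Pax6, a paired-domain and homeodomain factor, is expressed broadly in neural progenitors outside the most ventral bands. Its brighter probe is printed at 10 spots on each array, which gives the error between spots of 1 array. The signal was −2.31 in replicate 1 and −1.17 in replicate 9 of Jmjd3-/-, against −1.38 in replicate 3 and −1.32 in replicate 4 of wild-type. The SD over the 10 spots was 0.077 and 0.061 in Jmjd3-/- and 0.047 and 0.039 in wild-type. Replicate 1 was the lowest array and replicate 9 the highest; the SD between spots leaves out labelling, hybridisation and the variation between samples. The difference between the genotypes was −0.39 (SE 0.42, adjusted p = 0.760). The second Pax6 probe was not well above background on any array.

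Dbx2 and Dbx1 encode homeodomain factors of the intermediate progenitors, and Dbx1 is confined to the narrower band, which gives rise to V0 interneurons. Dbx2 had −2.20 in replicate 1 and −1.15 in replicate 9 of Jmjd3-/-, against −1.36 in replicate 3 and −1.32 in replicate 4 of wild-type, a difference of −0.33 (SE 0.39, adjusted p = 0.774). Its differences between the 4 arrays were close to those of Pax6. Dbx1 had −2.44 in replicate 1 and 0.84 in replicate 9 of Jmjd3-/-, against 0.87 in replicate 3 and 1.01 in replicate 4 of wild-type. Its processed intensity was 111 and 1033 in Jmjd3-/-, against 1093 and 1260 in wild-type. The Dbx1 difference was −1.74 (SE 1.20, adjusted p = 0.638, 95% interval −5.13 to 1.65). This was the largest mean difference of the 10 genes and also the least certain, since 1 array carried it.

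Msx3 encodes a homeodomain factor that is restricted in mouse to the dorsal neural tube. Its brighter probe had −3.20 in replicate 1 and −1.58 in replicate 9 of Jmjd3-/-, against −1.82 in replicate 3 and −1.75 in replicate 4 of wild-type, a difference of −0.61 (SE 0.59, adjusted p = 0.730). The dimmer probe had −6.36 in replicate 1 and −4.33 in replicate 9 of Jmjd3-/-, against −4.78 in replicate 3 and −4.59 in replicate 4 of wild-type, and was not well above background in replicate 1. Both probes had their lowest value in Jmjd3-/- replicate 1 and their highest in Jmjd3-/- replicate 9.

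**Figure D2:**
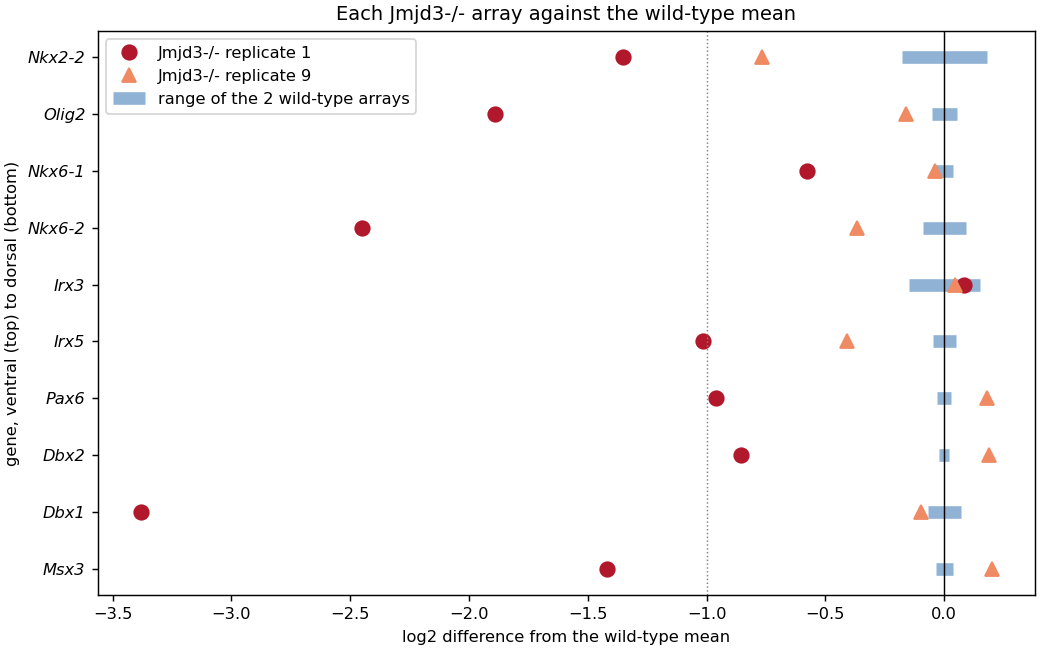
Log2 difference of each Jmjd3-/- array from the wild-type mean (horizontal axis) for the 10 genes from ventral at the top to dorsal at the bottom; the blue bar spans the 2 wild-type arrays, and the dotted line marks a 2-fold lower signal. Replicate 1 reaches −3.38 for Dbx1, while the points of replicate 9 lie between −0.77 for Nkx2-2 and 0.20 for Msx3.

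Set side by side, the Jmjd3-/- arrays gave different accounts of the same genes. Replicate 1 was over 2-fold below the wild-type mean for 6 of the 10 genes, against 3.56% of all genes, and replicate 9 for 0 of the 10, against 1.43%. Replicate 1 was below both wild-type arrays for 9 of the 10, against 48.4% of all genes. Replicate 9 was below both for 6, against 34.4%, above both for 3 (Pax6, Dbx2 and Msx3), against 42.8%, and between them for Irx3, against 22.8%. Among the 6, Nkx6-1 and Dbx1 were below the nearer wild-type array by a small margin only. The wild-type arrays were over 2-fold apart for 0 of the 10, against 1.16% of all genes, and their widest gap was 0.36, for Nkx2-2.

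The gap between the Jmjd3-/- arrays ran from −3.28 for Dbx1, the 10th lowest of 13584 genes, to 0.037 for Irx3. Replicate 1 was below replicate 9 for 9 of the 10 genes, against 59.6% of all genes. It was −2.08 for Nkx6-2, −1.73 for Olig2, −1.62 for Msx3, −1.14 for Pax6 and −1.04 for Dbx2. These 6 genes were over 2-fold lower in replicate 1 than in replicate 9, against 2.11% of all genes. Nkx2-2, Irx5 and Nkx6-1 had gaps of −0.59, −0.60 and −0.54, so they fell short of 2-fold. This gap is a difference between 2 samples of the same genotype and has no replicate check. It also cannot be told apart from an effect particular to 1 position, since these arrays lay at opposite ends of the slide. An effect running evenly along the slide would also separate the wild-type arrays. Over the 10 genes the median of wild-type replicate 4 minus replicate 3 was 0.090. The median of Jmjd3-/- replicate 1 minus replicate 9 was −1.09, and such an effect was not tested. With normexp, 4 of the 10 genes remained over 2-fold lower.

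**Figure D3:**
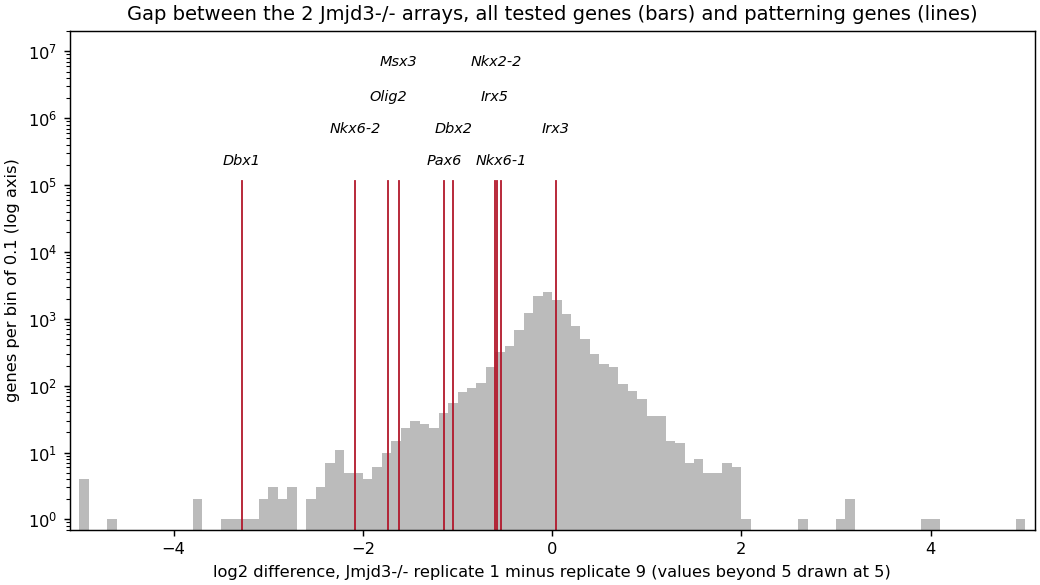
Number of tested genes (log axis) by the log2 difference between Jmjd3-/- replicate 1 and Jmjd3-/- replicate 9, in bins of 0.1, with a line for each patterning gene. Of the 10 lines 9 lie left of 0, against 59.6% of all genes, and the line of Dbx1 is at −3.28.

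The genes were also grouped by the position of their band along the dorsoventral axis. In Jmjd3-/- replicate 1 the 4 ventral genes had a median difference from wild-type of −1.62, with a range of −2.45 to −0.58. The 5 intermediate genes had a median of −0.96, with a range of −3.38 to 0.083, and the dorsal gene Msx3 had −1.42. In Jmjd3-/- replicate 9 the ventral genes had a median of −0.26, with a range of −0.77 to −0.039. The intermediate genes had a median of 0.047, with a range of −0.41 to 0.19, and Msx3 had 0.20. The medians thus ran upward from ventral to dorsal in replicate 9 but not in replicate 1, with 1 gene in the dorsal group, and the order was not tested. All 4 ventral genes were below the wild-type mean on both Jmjd3-/- arrays, while the intermediate genes fell on both sides of it in replicate 9. That count rests on Nkx6-1, at −0.039 in replicate 9 and −0.0077 with normexp. Its wild-type arrays differed by more, −0.071 for replicate 4 minus replicate 3. The share of all genes below that mean on both arrays was not computed. The grouping counts Nkx6-2 as ventral, though its band lies dorsal to the motor neuron progenitors.

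The result depended on which Jmjd3-/- sample was kept. With Jmjd3-/- replicate 1 left out, the median of the 10 genes was −0.069, and the differences of Pax6, Dbx2 and Msx3 were 0.18, 0.19 and 0.20. With Jmjd3-/- replicate 9 left out, the median was −1.18, and 4 of the 10 genes passed, with adjusted p of 0.0465 for Nkx6-2, Olig2 and Dbx1 and 0.0492 for Msx3 (limma). In that fit the lone Jmjd3-/- sample is assumed to vary like the wild-type samples, and 167 of all genes passed. Neither sample was left out in the other values given here.

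Other genes of the same programme were read beside the members. Among the signals and receptors that pattern the neural tube, 15 of 22 tested genes were lower, against 53.1% of all genes, and 7 higher. Of the 22, 0 passed, and the median was −0.13. Hhip, a target and inhibitor of hedgehog signalling, differed by −0.77 (SE 0.27, adjusted p = 0.448). Bmp6, a dorsal signal, differed by −0.40 (SE 0.12, adjusted p = 0.415 by limma). Aldh1a2, which makes retinoic acid, differed by −0.39 (SE 0.15, adjusted p = 0.481). Rara, a retinoic acid receptor gene, differed by −1.05 (SE 0.41, adjusted p = 0.481), but its wild-type arrays were 1.12 apart. The processed intensities of Rara were 25.7 and 27.1 in Jmjd3-/-, against 37.6 and 85.4 in wild-type. Shh and its target Gli1, picked with their values known, had differences of −0.12 (SE 0.18) and −0.11 (SE 0.071), with adjusted p of 0.844 and 0.626. Shh had −0.59 in replicate 1 and −1.05 in replicate 9 of Jmjd3-/-, against −0.75 in replicate 3 and −0.66 in replicate 4 of wild-type, so replicate 1 held its highest value and replicate 9 its lowest.

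Of the other genes of progenitor bands, 9 of 14 tested were lower, against 53.1% of all genes, and 5 higher. Of the 14, 0 passed, and the median was −0.14. Pax7, a dorsal progenitor factor, differed by −0.76 (SE 0.14, adjusted p = 0.329). Gbx2 and Sp8, which are also active in the tail bud region, differed by 0.91 (SE 0.27, adjusted p = 0.405) and 0.62 (SE 0.18, adjusted p = 0.388). Atoh1, Gsx2, Lmx1a and Ptf1a of this list were below that detection level on all 4 arrays. The median gap between the Jmjd3-/- arrays was −0.16 in this list, against −1.09 in the 10 members and −0.052 over all genes. It was −1.14 over the 4 tested head genes, −0.65 in the young neuron genes and −0.45 in the general neural progenitor genes, so negative gaps were not limited to the 10 members.

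Genes that mark neural progenitors in general had a median difference of −0.32, with 0 past the threshold. Of the 11 tested, 9 were lower, against 53.1% of all genes, and 2 higher. Sox2 and Sox1, progenitor factors picked with their values known, had differences of −0.0063 (SE 0.16) and −0.048 (SE 0.12), with adjusted p of 0.994 and 0.903. Sox2 had 0.58 in replicate 1 and 0.98 in replicate 9 of Jmjd3-/-, against 0.78 in replicate 3 and 0.79 in replicate 4 of wild-type. Sox1 had −3.89 in replicate 1 and −3.65 in replicate 9 of Jmjd3-/-, against −3.78 in replicate 3 and −3.68 in replicate 4 of wild-type. For both genes replicate 1 was the lowest array, by far less than for Dbx1 or Nkx6-2. Fabp7, a radial glia gene, differed by −1.16 (SE 0.32, adjusted p = 0.384), Pou3f2 by −0.94 (SE 0.18, adjusted p = 0.330) and Pou3f3 by −1.48 (SE 0.54, adjusted p = 0.461). Both Pou genes encode POU factors of neural progenitors, and Pou3f3 was not well above background in Jmjd3-/- replicate 1. Hes3, a repressor in progenitors, differed by 0.75 (SE 0.072, adjusted p = 0.176). The summed signal of the list was 12.4 in replicate 1 and 21.4 in replicate 9 of Jmjd3-/-, against 18.6 in replicate 3 and 22.2 in replicate 4 of wild-type.

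All 13 tested markers of young neurons had a lower mean in Jmjd3-/-, against 53.1% of all genes. Their median difference was −0.87, and 0 passed. The neuronal transcription factor genes Onecut2 and Myt1 gave a difference of −0.87 (SE 0.072, adjusted p = 0.152) and a signal at least 3.57-fold lower (adjusted p = 0.209). Nefm and Stmn2, genes of axons, differed by −0.75 (SE 0.14, adjusted p = 0.329) and −0.56 (SE 0.12, adjusted p = 0.335). Here both Jmjd3-/- arrays were below both wild-type arrays for all 13, against 23.7% of all genes. The medians were −1.26 in replicate 1 and −0.80 in replicate 9. Of the 13, 10 were well above background on all 4 arrays. Myt1 and Neurod4, the latter picked with its values known, were dim on both Jmjd3-/- arrays. They thus entered the test through wild-type alone, where they were higher. The summed signal was 3.45 in replicate 1 and 4.98 in replicate 9 of Jmjd3-/-, against 7.84 in replicate 3 and 7.89 in replicate 4 of wild-type.

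Factors of the postmitotic neuron classes that arise from these bands had a median of −0.13 over 15 tested genes, with 0 past the threshold. Of the 15, 9 were lower, against 53.1% of all genes, and 6 higher. Lhx3, a motor neuron and V2 interneuron factor, gave a signal at least 1.51-fold lower (adjusted p = 0.323). It was dim on both Jmjd3-/- arrays and entered the test through wild-type alone. Its relative Lhx4 differed by −0.88 (SE 0.20, adjusted p = 0.336). Lhx1 and Lhx5, which are made in several interneuron classes, differed by 1.12 (SE 0.21, adjusted p = 0.329) and 1.43 (SE 0.27, adjusted p = 0.330). Lhx1 is also active in intermediate mesoderm. The widest differences of the list, picked with their values known, were −3.84 (SE 1.13) for Lhx9 and −2.57 (SE 0.74) for Lhx2. En1 and Tlx3, markers of spinal interneurons, were not well above background on any array, nor was Barhl2.

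Tail bud genes had the opposite sign. All 14 tested had a higher mean in Jmjd3-/-, against 6366 of the 13584 genes tested, and 0 passed. Their median distance above wild-type was 1.64 for replicate 1 and 0.91 for replicate 9. The caudal genes Cdx1 and Cdx2 differed by 0.79 (SE 0.11, adjusted p = 0.233) and 1.45 (SE 0.23, adjusted p = 0.296), and the progenitor signals Wnt3a and Fgf17 by 1.42 (SE 0.25, adjusted p = 0.326) and 1.33 (SE 0.24, adjusted p = 0.329). Their summed signal was 65.9 in replicate 1 and 37.4 in replicate 9 of Jmjd3-/-, against 19.7 in replicate 3 and 21.5 in replicate 4 of wild-type. The array with the lowest patterning genes was also the array with the highest tail bud sum, and the part of tissue proportions or stage in the patterning values was not tested.

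**Figure D4:**
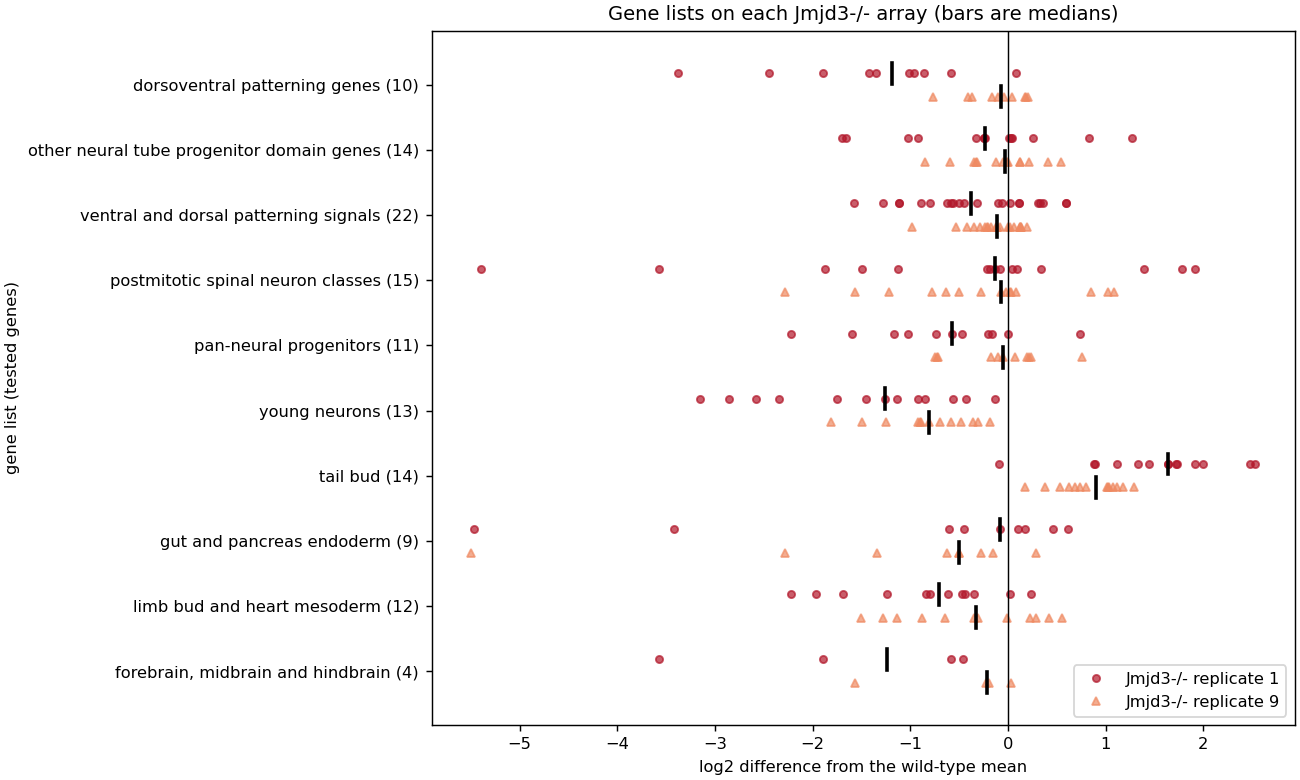
Log2 difference from the wild-type mean (horizontal axis) of each tested gene in 10 lists, for Jmjd3-/- replicate 1 (circles) and replicate 9 (triangles), with a bar at the median. The patterning genes have medians of −1.18 and −0.069 on the replicate 1 and replicate 9 arrays, the young neuron genes −1.26 and −0.80, and the tail bud genes 1.64 and 0.91.

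Some of the patterning genes are also expressed in the brain, so markers of the head were read. Of 10 such genes with a probe 4 were tested, all 4 were lower, against 53.1% of all genes, and 0 passed. Otx2 and Six3, which define the forebrain and midbrain, and Barhl2 were not well above background on any array. Lhx2 differed by −2.57 (SE 0.74, adjusted p = 0.391), Emx2 by −0.93 (SE 0.72, adjusted p = 0.667) and En2 by −0.33 (SE 0.12, adjusted p = 0.468). Lhx2 is also active in limb bud and is on the list of postmitotic neuron classes too. The summed signal was 0.853 in replicate 1 and 1.84 in replicate 9 of Jmjd3-/-, against 3.49 in replicate 3 and 4.15 in replicate 4 of wild-type, and Lhx2 made up 65.6% of it.

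For each member the gene with the most similar values over the 4 arrays was found by the root mean square difference of log2 values, after each gene was centred on its own mean. Among 13249 genes, the nearest to Pax6 was another member, Dbx2, at 0.045. The nearest to Dbx1 was Mlc1, whose probe was not well above background in Jmjd3-/- replicate 1, so its distance is not exact. The same holds for Adamts16, the nearest to Nkx2-2, and for Stx11, the nearest to Irx5, which was not well above background on either Jmjd3-/- array. The nearest to Nkx6-2 was Rhbdl3 at 0.087, to Msx3 Izumo4 at 0.029, to Dbx2 Surf6 at 0.027, to Nkx6-1 Shisa4 at 0.010 and to Irx3 Cytip at 0.011. Likeness over 4 arrays separates few genes when the values are flat: 5819 genes lay within 0.15 of Irx3 and 1433 within 0.15 of Nkx6-1, against 8 for Nkx6-2, 10 for Olig2 and 14 for Msx3, and these counts include genes with a dim probe on some arrays.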

How the data were processed

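Cy3-labelled RNA of 4 samples was read on 4 Agilent 1-colour arrays. The deposited scanner files hold spot intensity in arbitrary units, corrected for background within the array, and come from Agilent Feature Extraction (version 10.7.3.1), per the file headers; the submitters' processing notes name the same version. The deposited table of log2 values states no scale, centring or direction. It was set against the scanner values: 99.9% of probes lay within 0.01 of the log2 signal less the 75th percentile and less the wild-type mean, with r from 0.995 to 0.997 across probes and column medians of −0.021 and 0.055 for Jmjd3-/- and 0.020 and −0.020 for wild-type. The flags for background, saturation and outlier spots were set by the scanner software and deposited as other columns of 0 or 1; 0 spots were saturated.

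Control spots (1639 of 45018) were left out, spots of a probe were averaged on the log2 scale, and each array was scaled by its 75th percentile, a processed intensity of 603 (replicate 1) and 578 (replicate 9) for Jmjd3-/- and 599 (replicate 3) and 627 (replicate 4) for wild-type. Probes were named through the RefSeq table of GRCm38.p6, 26690 by accession, 5 by symbol and 23 by synonym, and 14456 stayed unnamed. The headers name another build, so that table gave names and chromosomes only. The brightest probe on average stood for its gene, and the test took genes whose brightest probe exceeded background (well above it) in both samples of either genotype. The test was limma 3.58.1 under R 4.3.3 (lmFit, eBayes, prior of 1.79 degrees of freedom), with Benjamini-Hochberg adjustment over 13584 genes, a threshold of 0.05 and no covariate. For a gene dim (not well above background) in both samples of a genotype, "at least N-fold" sets the bright mean against, on each dim array, the higher of its own signal and the lowest signal well above background. Arrays of a genotype had 0 genes with equal values. Nothing says that samples are separate embryos, so a p-value reflects only how far these samples vary, which may be technical. Alternatives changed the background correction, scaling, filter, probe rule and prior, or left out 1 array.

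The members and gene lists were chosen with earlier results of these data known. Named genes are the members, Kdm6b, up to 4 tested genes of each list by p, and the nearest gene to each member by array pattern; other names are marked in the text. Some genes that this rule names are not reported here.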

Additional observations from a re-analysis of the deposited data

How the results depend on the processing

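Over 14 alternatives, the 10 patterning genes gave 140 differences, of which 132 kept their direction and their side of the threshold. Without Jmjd3-/- replicate 1, Pax6, Dbx2 and Msx3 changed sign. Over the arrays left out Pax6 ranged from −0.96 to 0.18, Dbx2 from −0.86 to 0.19 and Msx3 from −1.42 to 0.20. Irx3 ranged from −0.085 without wild-type replicate 3 to 0.22. The number of patterning genes past the threshold was 0 throughout, except that over the arrays left out it ranged from 0 to 4, with 4 without Jmjd3-/- replicate 9. Over the arrays left out their median ranged from −1.18 without Jmjd3-/- replicate 9 to −0.069 without Jmjd3-/- replicate 1. It was −0.37 with normexp, run on the median spot signal because the files hold no mean signal, and between −0.68 and −0.66 in the other alternatives that kept all 4 arrays. Over all genes, 5 passed as planned. The count was 2 with normexp, 3 with probes averaged per gene and 3 with an intensity trend in the prior. It was 0 with quantile normalisation, without the filter on dim probes, with a filter on all 4 arrays and with every probe fitted on its own, where 1466, 1621, 1415 and 2422 had an unadjusted p under 0.05 by limma. It was 7 with median scaling and ranged from 0 to 167 over the arrays left out: 167 without Jmjd3-/- replicate 9, and 0 without Jmjd3-/- replicate 1 or wild-type replicate 3 or 4, where 1941, 643 and 674 had an unadjusted p under 0.05. The count of patterning genes over 2-fold lower in Jmjd3-/- replicate 1 than in replicate 9, added after the data were seen, was 4 to 6 of 10 genes, and 7 of 11 probes. The count with both Jmjd3-/- arrays below both wild-type arrays, also added, was 5 or 6 with all arrays. With 1 left out, only the arrays kept were compared, so the count could not fall, and it was 6 to 9. The 9 is Jmjd3-/- replicate 1 alone below both wild-type arrays, against 48.4% of all genes. No paired analysis was possible because the genotypes share no replicate number. Of the 10 genes, Nkx2-2, with its dim probe, moved most with normexp, to −0.36.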
